A study of Mus musculus with 7 samples.

Results

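The epidermal and wound keratins are 10 genes chosen by name. They comprise 3 keratins of the basal layer (Krt5, Krt14 and Krt15), 3 of the suprabasal layers (Krt1, Krt10 and Krt2) and 4 that keratinocytes make after wounding or stress (Krt6a, Krt6b, Krt16 and Krt17). All 10 were found among the 55450 genes of the count table, and all 10 were among the 17959 genes that passed the expression filter and were tested. Bulk RNA sequencing was carried out on dorsal skin of wild type male C57BL/6 mice aged 24 months, with 1 library of polyA RNA per mouse. The groups were 3 mice given 5 μM ABT-263 (mice 476, 477 and 478) and 4 mice given the vehicle DMSO alone (mice 480, 481, 482 and 483), both applied to the skin for 5 days. ABT-263, or navitoclax, inhibits proteins of the Bcl-2 family and is used as a senolytic. In both groups the hair had first been clipped and removed with a depilatory lotion, the skin cleansed with ethanol, and the site covered with a semi-occlusive dressing, so no mouse had untouched skin. The skin was homogenized whole, so each library mixes epidermis, hair follicles, dermis and the tissue beneath.

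Keratins are the intermediate filament proteins of epithelial cells, and each filament is built from pairs of a type I and a type II chain. Basal keratinocytes make KRT5 with KRT14, and cells that leave the basal layer change to KRT1 with KRT10, with KRT2 in the upper layers. KRT6A, KRT6B, KRT16 and KRT17 are made constitutively in parts of the hair follicle and are known for their rapid induction in the epidermis at wound edges.

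Counts per library lay between 20344364 and 26824123 in DMSO-treated mice and between 27325963 and 43562330 in ABT-263-treated mice, so every ABT-263 library was larger. Levels are given as CPM, counts scaled to a common library size with TMM normalization. Differences are log2 fold changes of ABT-263 over DMSO from edgeR's quasi-likelihood test. Their standard errors (SE) were derived from that test, as the absolute log2 fold change divided by the square root of the F statistic. A gene was called changed at a Benjamini-Hochberg adjusted p under 0.05 over all genes tested. Markers of some other cell types differed between the groups, where 12.4% of all genes tested were called higher and 11.7% lower. The summed level of 8 skeletal muscle genes was 34823 to 70787 CPM after DMSO and 27647 to 36598 CPM after ABT-263, and 2 of the 8 were called lower (4 without mouse 480, and 1 without any other single mouse). All 5 endothelial genes were called higher, at a summed 100.5 to 209 CPM after DMSO and 317 to 417 CPM after ABT-263 (3 to 5 called when single mice were left out, 3 without mouse 476, 478, 482 or 483). Of 6 fibroblast genes, 3 were called higher, at a summed 3798 to 5304 CPM after DMSO and 6004 to 8569 CPM after ABT-263 (2 without mouse 477, 478, 481, 482 or 483). Of 5 adipocyte genes edgeR called 0 and DESeq2 called 2 higher, and of 5 sebocyte genes edgeR called 1 lower. No marker of the muscle, endothelial and fibroblast lists was at 0 in any library. The part of these cell types in the keratin levels was not tested.

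The type II genes lie on chromosome 15 and the type I genes on chromosome 11, all on the minus strand. On GRCm38 they span chr15:101676023-101680287 (Krt6b), chr15:101689910-101694307 (Krt6a), chr15:101707070-101712898 (Krt5), chr15:101810689-101818169 (Krt2) and chr15:101845426-101850794 (Krt1). The type I genes span chr11:99385254-99389364 (Krt10), chr11:100131758-100135928 (Krt15), chr11:100203162-100207548 (Krt14), chr11:100246091-100248902 (Krt16) and chr11:100256217-100261029 (Krt17). No member shared exon bases with another gene on its strand. Several members are near copies of each other, which bears on how many of their reads align uniquely. The coding sequences of Krt6a and Krt6b were identical at 97.8% of aligned bases, with a longest identical run of 280 bases. Krt14 and Krt16 were identical at 86.5%, with a longest run of 134 bases, and Krt14 and Krt17 at 84.1%. The 120-base coding windows in which Krt6a and Krt6b differed most are shown first, with the 8 differing bases in capitals. Both lie in exon 1 and cover coding bases 304 to 423, at chr15:101693826-101693945 for Krt6a and chr15:101679801-101679920 for Krt6b, read 5′ to 3′ on the minus strand. The window of coding bases 34 to 153 that both genes share without a difference follows, from chr15:101694096-101694215 in Krt6a and chr15:101680071-101680190 in Krt6b.
Krt6a: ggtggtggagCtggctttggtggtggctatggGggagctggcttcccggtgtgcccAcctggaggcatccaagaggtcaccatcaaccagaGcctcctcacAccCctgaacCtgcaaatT
Krt6b: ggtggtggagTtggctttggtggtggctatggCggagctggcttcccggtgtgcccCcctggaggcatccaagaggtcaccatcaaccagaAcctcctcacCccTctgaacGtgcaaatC
Krt6a and Krt6b: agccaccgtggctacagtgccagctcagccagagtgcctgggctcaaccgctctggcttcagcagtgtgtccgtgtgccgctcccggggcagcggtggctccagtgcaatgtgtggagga

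For Krt14 and Krt16, a basal and a wound keratin, the most different 120-base window held 32 differing bases, again in capitals. It lies in exon 5, at chr11:100204430-100204549 in Krt14 and chr11:100247108-100247227 in Krt16. A window without a difference lies in exon 1, at chr11:100207031-100207150 in Krt14 and chr11:100248490-100248609 in Krt16.
Krt14: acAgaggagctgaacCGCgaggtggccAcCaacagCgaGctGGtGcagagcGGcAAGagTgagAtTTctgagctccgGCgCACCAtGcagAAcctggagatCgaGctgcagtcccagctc
Krt16: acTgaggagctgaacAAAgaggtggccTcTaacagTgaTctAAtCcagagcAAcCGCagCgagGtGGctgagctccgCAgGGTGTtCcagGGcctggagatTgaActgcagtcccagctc
Krt14 and Krt16: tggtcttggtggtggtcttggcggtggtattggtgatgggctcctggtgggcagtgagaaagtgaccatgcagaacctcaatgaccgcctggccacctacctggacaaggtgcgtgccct

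Of all 50-base windows of the Krt6a transcript, 49.5% also occurred in another annotated gene, and 43.6% occurred in Krt6b. Of 100-base windows, 34.0% were shared. For Krt6b the shares were 50.1% and 30.6%, and for Krt16 they were 37.6% and 24.3%, mostly with the pseudogene Gm11597 (25.2% of 50-base windows) and with Krt14 (12.4%). Krt14 shared 14.4% of its 50-base windows, Krt5 8.52%, Krt17 3.99% and Krt15 0.666%. Krt1, Krt10 and Krt2 shared none. The read length is not given in the sources used here. Only read pairs with a single alignment were counted, so pairs lying wholly in shared sequence are left out. The counts of Krt6a and Krt6b and their ratio are therefore uncertain, and to a lesser degree those of Krt16, Gm11597 and Krt14. Gm11597 itself held 0 to 53 counts per library, against 9773 to 390060 for Krt16.

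The 10 keratins together took an uneven share of the reads. The share was 6.40% of all counts in DMSO-treated mouse 480, against 2.77%, 3.28% and 2.58% in mice 481, 482 and 483. After ABT-263 it was 2.81% in mouse 476, 7.41% in mouse 477 and 4.12% in mouse 478. The highest mouse of each group thus held more than the other mice of both groups, and the groups overlapped. Mice 480 and 477 were the highest pair of libraries for 8 of the 10 members, a pattern that held for 7.52% of all genes tested. The exceptions were Krt15 and Krt2.

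**Figure D1:**
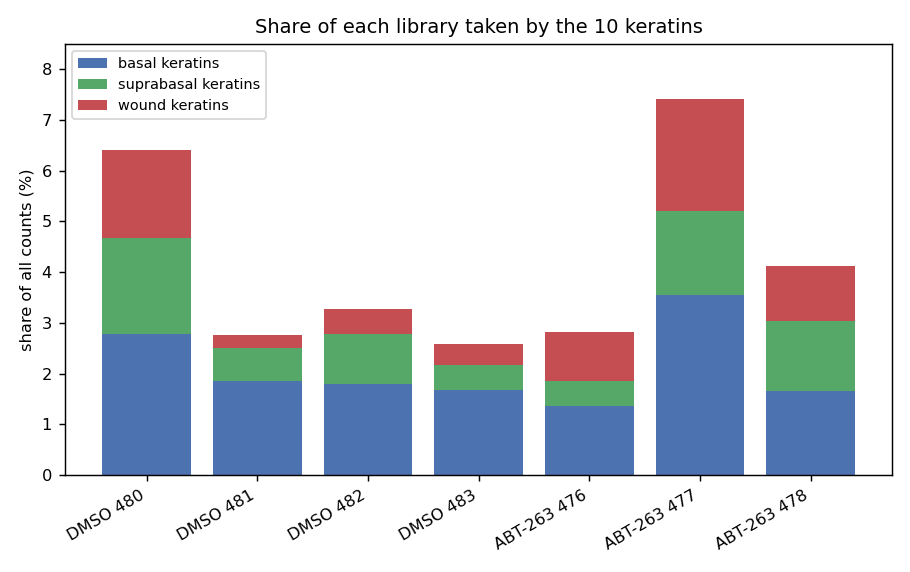
Stacked bars give the share of all counts (%) that the basal, suprabasal and wound keratins took in each of the 7 libraries. The totals of mouse 480 (6.40%) and mouse 477 (7.41%) stand above those of the other mice, which lie between 2.58% and 4.12%.

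At the threshold, 1 of the 10 members was called lower after ABT-263, where 11.7% of all genes tested were, and 0 were called higher, where 12.4% of all genes tested were. The called gene was Krt15. At an unadjusted p under 0.05 from edgeR, 2 members were lower (Krt15 and Krt2) and 0 were higher. DESeq2's Wald test called the same 2 lower and limma, run on the authors' variance-stabilized values, called Krt15 lower, and neither called a member higher. The groups did not overlap for 2 of the 10, again Krt15 and Krt2, against 37.1% of all genes tested. The log2 fold change was positive for 6 members and negative for 4.

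**Figure D2:**
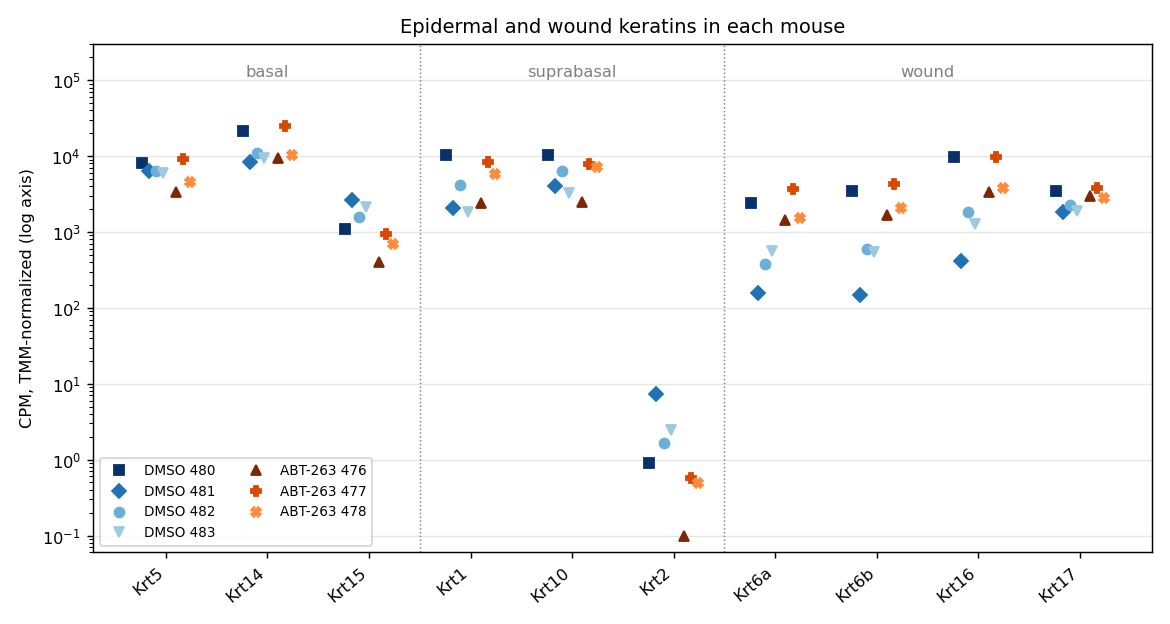
Points give the TMM-normalized CPM of each keratin in each mouse on a log axis, DMSO in blue and ABT-263 in orange. Krt2 in mouse 476, at 0 counts, is drawn at the lower edge. All ABT-263 points lie below all DMSO points for Krt15 and Krt2, and mouse 480 lies among the ABT-263 points for the wound keratins.

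Of the basal keratins, Krt5 and Krt14 were among the most abundant transcripts of the skin and did not pass the test, whereas Krt15 fell. Krt5, the type II chain of basal keratinocytes, was at 8190.5, 6370.2, 6264 and 5976 CPM in DMSO-treated mice 480, 481, 482 and 483. After ABT-263 it was at 3356, 9149.5 and 4606 CPM in mice 476, 477 and 478. Mouse 477 was the highest and mouse 476 the lowest of all 7, so the ABT-263 values enclosed those after DMSO. This amounted to a log2 fold change of −0.23 (SE 0.37, adjusted p = 0.669 from edgeR). Krt14, the type I partner of Krt5, was at 21269, 8427, 10863 and 9387 CPM after DMSO and at 9475, 24884 and 10251 CPM after ABT-263. In each group a single mouse (480 and 477) lay far above the rest, and the remaining 5 mice lay close together whatever their treatment. The log2 fold change was 0.25 (SE 0.48, adjusted p = 0.728 from edgeR).

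Krt15 is a type I keratin of basal keratinocytes and of the stem cells in the hair follicle bulge. It was at 1099, 2626, 1573 and 2114 CPM in DMSO-treated mice 480, 481, 482 and 483. It was at 407, 943 and 688 CPM in ABT-263-treated mice 476, 477 and 478. The highest ABT-263-treated mouse was below the lowest DMSO-treated mouse, although by little. The means were 1853 ± 661 CPM (SD, n = 4) and 679 ± 268 CPM (SD, n = 3). This was a 2.73-fold lower level, a log2 fold change of −1.45 (SE 0.38, adjusted p = 0.0312 from edgeR). When single mice were left out, the estimate stayed between −1.74 and −1.18, and 2 of the 7 fits kept the call. The adjusted p was 0.0206 without mouse 480 and 0.0293 without mouse 477. It was 0.0816 without mouse 476, 0.0914 without mouse 478, 0.0639 without mouse 481, 0.0641 without mouse 482 and 0.0731 without mouse 483. In whole skin, fewer cells that make a transcript and less transcript per cell cannot be told apart.

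Some, but not all, other genes of hair follicle stem cells and sheath were lower beside Krt15. Of 8 such genes, 3 were called lower and 0 higher by edgeR, against 11.7% lower and 12.4% higher of all genes tested. The number higher was 0 also at an unadjusted p under 0.05, by DESeq2 and by limma. The log2 fold change was negative for 5 of the 8 and positive for 3. Sox9, a regulator of follicle stem cells, was at 110 to 170 CPM after DMSO and 45.3 to 77.9 CPM after ABT-263 (log2 fold change −1.29, SE 0.23, adjusted p = 0.0102 from edgeR). Lgr6, a marker of follicle stem cells, fell by 1.38 on the log2 scale (adjusted p = 0.0162 from edgeR) and Lhx2 fell by 1.19 (adjusted p = 0.0408 from edgeR). The calls of Sox9 and Lgr6 held whichever mouse was left out, and that of Lhx2 was lost without mouse 478, 480, 481, 482 or 483. Lgr5 (log2 fold change −0.74), Nfatc1 (−0.0029), Lrig1 (0.27), Cd34 (0.29) and Fgf18 (0.26) did not pass the test. Their part in the level of Krt15 was not tested. Krt15 and Krt2 were both highest in mouse 481. That library also held the hair keratins at far higher levels than any other DMSO library, as described below.

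The suprabasal keratins Krt1 and Krt10, which replace Krt5 and Krt14 as cells leave the basal layer, spread several-fold within each group and did not pass the test. Krt1, the type II chain, was at 10426, 2061, 4157 and 1814 CPM after DMSO and at 2399, 8409 and 5746 CPM after ABT-263. The highest value and the lowest 2 were all after DMSO. Between the groups, the log2 fold change was 0.26 (SE 0.68, adjusted p = 0.807 from edgeR). Krt10, the type I chain, was at 10358, 4092, 6272 and 3291 CPM after DMSO and at 2492, 7769.5 and 7104 CPM after ABT-263. Mouse 476 was lowest and mouse 480 highest, and the groups overlapped over most of their range. The log2 fold change was −0.05 (SE 0.51, adjusted p = 0.950 from edgeR). The sign of the Krt1 and Krt10 differences turned when single mice were left out. Without mouse 480 they were 1.04 and 0.34, and without mouse 477 they were −0.17 and −0.31.

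Krt2, the type II chain of the upper suprabasal layers, was close to the detection limit in this skin. It had 22, 174, 32 and 59 counts in DMSO-treated mice 480, 481, 482 and 483, or 0.900, 7.33, 1.64 and 2.42 CPM. After ABT-263 it had 0, 23 and 23 counts in mice 476, 477 and 478, or 0, 0.580 and 0.494 CPM, where the count of 0 allows a level of up to 0.107 CPM at 3 counts. Every ABT-263-treated mouse was below every DMSO-treated mouse, with mouse 481 far above the others. This amounted to a log2 fold change of −3.03 (SE 1.03, adjusted p = 0.0665 from edgeR), so the difference did not pass the threshold. DESeq2's Wald test gave an adjusted p of 0.00476, and without mouse 481 the log2 fold change was −2.15 (adjusted p = 0.139 from edgeR). Per kilobase of transcript, Krt2 averaged 1.18 CPM after DMSO, against 2867 CPM for Krt10.

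All 4 wound keratins were higher in each ABT-263-treated mouse than in DMSO-treated mice 481, 482 and 483. Mouse 480 lay above 2 of the 3 ABT-263-treated mice for each of them, and none of the 4 passed the test with all mice. Krt6a was at 2389, 158, 374 and 563 CPM in DMSO-treated mice 480, 481, 482 and 483 and at 1416, 3731 and 1541 CPM in ABT-263-treated mice 476, 477 and 478. Mouse 480 was above mice 476 and 478, and its value exceeded that of mouse 481 by 15.1-fold. The log2 fold change was 1.36 (SE 0.86, adjusted p = 0.277 from edgeR). Krt6b was at 3446, 149, 593 and 539 CPM after DMSO and at 1664, 4345 and 2073 CPM after ABT-263. The order of the mice was nearly that of Krt6a, with a 23.1-fold range within the DMSO group and a 2.61-fold range within the ABT-263 group. Between the groups, the log2 fold change was 1.19 (SE 0.94, adjusted p = 0.381 from edgeR).

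Krt16, the type I partner of KRT6, was at 9686, 412, 1855 and 1279 CPM after DMSO and at 3328, 9832 and 3739 CPM after ABT-263. Mice 480 and 477 were nearly level, and the lowest DMSO-treated mouse, 481, was 23.5-fold below mouse 480. The log2 fold change was 0.77 (SE 0.97, adjusted p = 0.591 from edgeR). Krt17, a type I keratin of the follicle outer root sheath that is also induced in wounds, varied least of the 4. It was at 3428, 1811, 2292 and 1879.9 CPM after DMSO and at 2937, 3840.3 and 2829 CPM after ABT-263. Mouse 480 again lay within the ABT-263 range and the other DMSO-treated mice below it. This amounted to a log2 fold change of 0.44 (SE 0.28, adjusted p = 0.273 from edgeR).

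The calls of the wound keratins changed when DMSO-treated mouse 480 was left out. Without mouse 480, the log2 fold change was 2.61 for Krt6a (SE 0.58, adjusted p = 0.0254 from edgeR), 2.65 for Krt6b (SE 0.62, adjusted p = 0.0277 from edgeR) and 2.25 for Krt16 (SE 0.66, adjusted p = 0.04996 from edgeR). Krt17 was at 0.68 (SE 0.22, adjusted p = 0.0599 from edgeR). In that fit 11.6% of all genes tested were called higher. Without mouse 480 the groups did not overlap for 6 of the 10 members, namely Krt15, Krt2 and the 4 wound keratins, against 46.7% of all genes tested. In the other 6 fits with a mouse left out, no wound keratin was called. Without mouse 477 the log2 fold changes were 0.77 for Krt6a, 0.67 for Krt6b, 0.11 for Krt16 and 0.32 for Krt17. With both 480 and 477 left out, an alternative added after seeing the data, Krt6a alone of the 4 was called (2.05, adjusted p = 0.0434 from edgeR). The labels name no batch or other feature that sets mouse 480 apart.

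**Figure D3:**
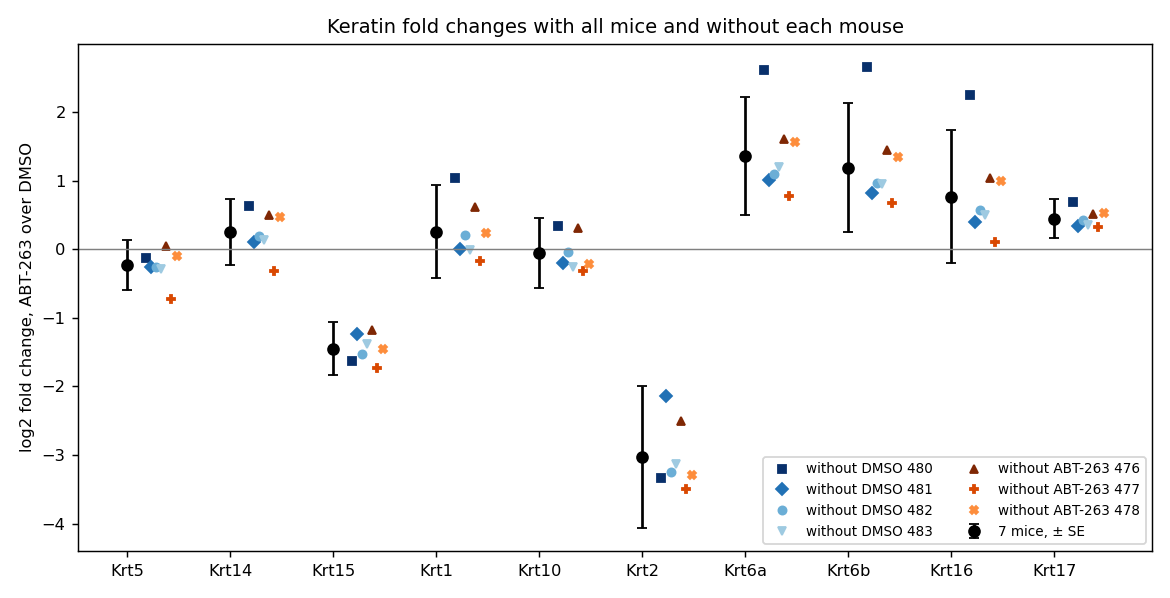
Black points give the log2 fold change of each keratin with all 7 mice and bars ± 1 SE, and coloured points give the value with 1 mouse left out. The wound keratins lie highest without DMSO-treated mouse 480 (2.61 for Krt6a) and lowest without ABT-263-treated mouse 477 (0.77 for Krt6a), and Krt15 stays between −1.74 and −1.18.

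Ordered by level per kilobase of transcript, the DMSO means ran from Krt14 (7354 CPM per kilobase) through Krt5 (3049.7), Krt10 (2867), Krt16 (2114), Krt1 (1879.7), Krt17 (1517), Krt15 (1089.9), Krt6b (529) and Krt6a (382) to Krt2 (1.18). After ABT-263 the order was Krt14 (8757), Krt16 (3599), Krt10 (2764), Krt5 (2596), Krt1 (2248), Krt17 (2064), Krt6b (1205), Krt6a (979), Krt15 (399.5) and Krt2 (0.137). After DMSO every mouse had more Krt14 than any mouse had Krt5, and after ABT-263 every mouse had more Krt6a than any mouse had Krt15. Krt2 lay below every other member in all mice. The other neighbours in either order overlapped between mice. These levels were divided by the whole transcript length, while read pairs lying wholly in shared sequence were not counted. The levels of Krt6a, Krt6b and Krt16 may therefore be too low beside the others, by an unknown amount.

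Of the counts of the 10 members, the wound keratins took 27.0%, 9.69%, 14.9% and 15.9% in DMSO-treated mice 480, 481, 482 and 483. In ABT-263-treated mice 476, 477 and 478 they took 34.0%, 29.8% and 26.4%. The share in mouse 480 lay just above that of mouse 478, and the other DMSO-treated mice lay below every ABT-263-treated mouse. The basal keratins took 43.5%, 66.7%, 54.6% and 65.1% after DMSO and 48.2%, 48.0% and 40.3% after ABT-263. Mouse 476, whose keratin total was among the low ones, held the highest share of wound keratins.

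Ratios between members were compared because a ratio within a library does not depend on how the libraries are scaled. For 12 ratios of counts, the difference of the group means of log2 ratios was tested with an exact permutation test over the 7 mice, two-sided, whose smallest possible p is 0.0286. None of the 12 had an exact p under 0.05, and none passed adjustment over the 12. In 2 of the 12 the groups did not overlap. Krt6a over Krt5, the wound over the basal type II chain, was 0.281, 0.0239, 0.0576 and 0.0909 per kilobase in DMSO-treated mice 480, 481, 482 and 483. It was 0.407, 0.393 and 0.323 in ABT-263-treated mice 476, 477 and 478. All ABT-263-treated mice were close together and above all DMSO-treated mice, with mouse 480 near them. The log2 difference was 2.27 (SE 0.75, exact permutation p = 0.0571, adjusted 0.257 over the 12).

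Krt2 over Krt10, the other ratio without overlap, rests on the low counts of Krt2 and on 0 counts in mouse 476, with 0.5 added to each count. Its log2 difference was −3.64 (SE 1.46, exact permutation p = 0.0571, adjusted 0.257). Krt15 over Krt14, both type I chains of basal cells, was 0.0516, 0.311, 0.145 and 0.225 after DMSO and 0.0429, 0.0379 and 0.0670 after ABT-263. Mouse 480 lay among the ABT-263-treated mice and the rest of its group above them. The log2 difference was −1.66 (SE 0.62, exact permutation p = 0.0857, adjusted 0.257). Krt16 over Krt14 was 0.494, 0.0530, 0.185 and 0.148 after DMSO and 0.381, 0.429 and 0.396 after ABT-263. Here too mouse 480 was the exception in its group, above all ABT-263-treated mice. The log2 difference was 1.29 (SE 0.66, exact permutation p = 0.143, adjusted 0.286).

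Krt5 over Krt14 was 0.298, 0.584, 0.446 and 0.492 after DMSO and 0.274, 0.284 and 0.347 after ABT-263, with mouse 480 again inside the ABT-263 range. The log2 difference was −0.56 (SE 0.23, exact permutation p = 0.0857, adjusted 0.257). Krt1 over Krt10 was 0.859, 0.430, 0.565 and 0.470 after DMSO and 0.821, 0.923 and 0.690 after ABT-263, and again mouse 480 fell among the ABT-263-treated mice. The log2 difference was 0.53 (SE 0.25, exact permutation p = 0.143, adjusted 0.286). Krt6a over Krt6b, the near-identical paralogs, lay between 0.619 and 1.04 after DMSO and between 0.729 and 0.842 after ABT-263, a log2 difference of −0.03 (SE 0.21, exact permutation p = 0.857). That ratio rests on the reads that align uniquely to either paralog, so its level is uncertain. For the other 5 ratios (Krt6a/Krt16, Krt6b/Krt17, Krt10/Krt14, Krt1/Krt5 and Krt17/Krt14) the log2 differences lay between −0.28 and 1.47, with exact permutation p between 0.171 and 0.514.

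**Figure D4:**
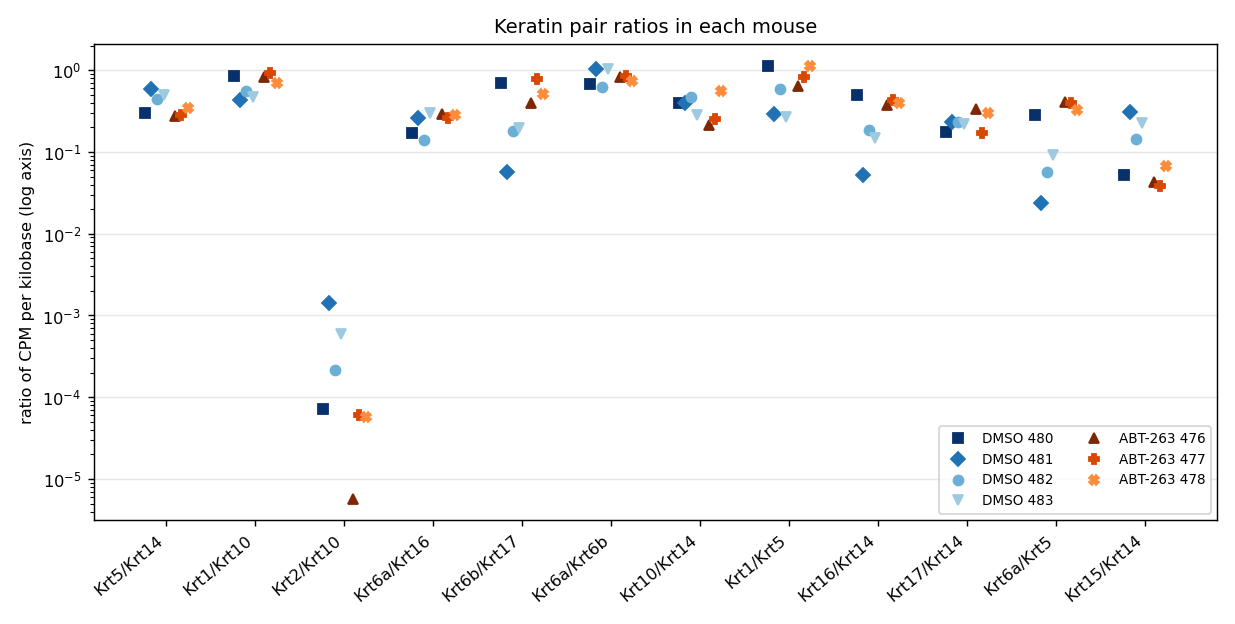
Points give the ratio of CPM per kilobase for the 12 keratin pairs in each mouse on a log axis, DMSO in blue and ABT-263 in orange. For Krt6a/Krt5 the ABT-263 points lie between 0.323 and 0.407, above all DMSO points, and for the Krt5/Krt14, Krt1/Krt10 and Krt15/Krt14 ratios mouse 480 lies within the ABT-263 range.

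Across the 7 libraries the wound keratins varied together. Pearson's r of log2 CPM was 0.988 for Krt6a and Krt6b, 0.963 for Krt6a and Krt16 and 0.957 for Krt16 and Krt17. For Krt1 and Krt10 it was 0.919 and for Krt5 and Krt14 0.727. Krt15 and Krt2 had an r of 0.972, both with mouse 481 highest, and Krt15 had an r of −0.705 with Krt6a. These values describe 7 libraries from both treatments, in which levels of cell type markers also varied. The paralogs share sequence, although only read pairs with a single alignment were counted. Of 15574 genes outside the members with a mean of at least 1 CPM, the most like Krt16 were Lce3e (r = 0.999), Klk9, Serpinb6c, Lce3f and Csta1. Those most like Krt6a were Grid2ip (r = 0.999), Fabp5l2, Pla2g4d, Bfsp1 and Myct1. Krt14 was most like Aqp3 (r = 0.983), Myo1e, Mta3, Nt5c2 and Serpinb11, and Krt10 most like 9930012K11Rik (r = 0.990), Bglap3, Map2, Rab3d and Anxa9. None of these 20 genes was called by edgeR between the groups.

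A list of 20 genes known to rise in wounded or stressed epidermis was set beside the wound keratins. With all mice, 6 of the 20 were called higher and 0 lower by edgeR, against 12.4% higher and 11.7% lower of all genes tested. The numbers were 11 higher and 0 lower both at an unadjusted p under 0.05 and by DESeq2, and 7 and 0 by limma. The median log2 fold change was 1.89, against 0.00 over all genes tested. Serpinb2, an inhibitor of plasminogen activators, was at 13.8, 17.1, 13.8 and 14.7 CPM after DMSO and at 180, 45.5 and 66.7 CPM after ABT-263 (log2 fold change 2.71, SE 0.44, adjusted p = 0.00886 from edgeR). Areg, which encodes the growth factor amphiregulin, was at 1.39 to 4.99 CPM after DMSO and 8.81 to 11.5 CPM after ABT-263 (1.71, SE 0.38, adjusted p = 0.0179 from edgeR). Both held their call whichever mouse was left out. S100a8, a calprotectin subunit made by stressed keratinocytes and by neutrophils, was at 59.3 to 518 CPM after DMSO and 1714 to 2912 CPM after ABT-263 (2.98, SE 0.67, adjusted p = 0.0208 from edgeR), a call lost without mouse 476, 478 or 483. Plaur, the urokinase receptor, had a log2 fold change of 3.11 (SE 0.85, adjusted p = 0.0375 from edgeR), with mouse 476 at 242 CPM and mouse 478, at 13.9 CPM, within the DMSO range.

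As with the wound keratins, more genes of this list were called when mouse 480 was left out. With all mice, however, the groups did not overlap for 12 of the 20, against 0 of the 4 wound keratins and 37.1% of all genes tested. Without mouse 480, 16 of the 20 were called higher, against 11.6% of all genes tested. The median log2 fold change was 2.88, against 0.01 over all genes tested. Among the 16 were Sprr1a, Sprr1b, Sprr2d, Sprr2e, Sprr2f and Sprr2h of the cornified envelope, the gap junction genes Gjb2 and Gjb6, Fabp5, Slpi and Il36a. Hbegf and Il1rn were called with all mice and without mouse 480, but lost their call without any of the other 6 mice. Plaur kept its call only without mouse 478, and its log2 fold change was 1.25 without mouse 476. S100a9, Lcn2 and Ereg were called in neither fit. With any other mouse left out, 2 to 4 of the 20 were called. The summed level of the list was 7143 CPM in mouse 480, against 879.9 to 2819 CPM in the other DMSO-treated mice and 9901 to 14288 CPM after ABT-263. All 6 macrophage genes were called higher, at a summed 185 to 463 CPM after DMSO and 723 to 2628 CPM after ABT-263, with 1 to 5 called when single mice were left out (1 without mouse 483, 3 without mouse 476 or 478, 4 without mouse 480, 481 or 482). Of 5 neutrophil genes, 4 were tested and 2 called higher, at a summed 2.78 to 18.7 CPM after DMSO and 29.0 to 450.3 CPM after ABT-263, the highest in mouse 476, with 0 to 2 called when single mice were left out (0 without mouse 482, and 1 without 476, 480, 481 or 483). Of 5 T cell genes edgeR called 0, as did DESeq2 and limma, with 0 also at an unadjusted p under 0.05, at a summed 12.9 to 24.2 CPM after DMSO and up to 36.8 CPM after ABT-263. The neutrophil granule gene Ngp was at 0 in mice 480, 481 and 478. Their part in the level of the list or of the wound keratins was not tested.

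**Figure D5:**
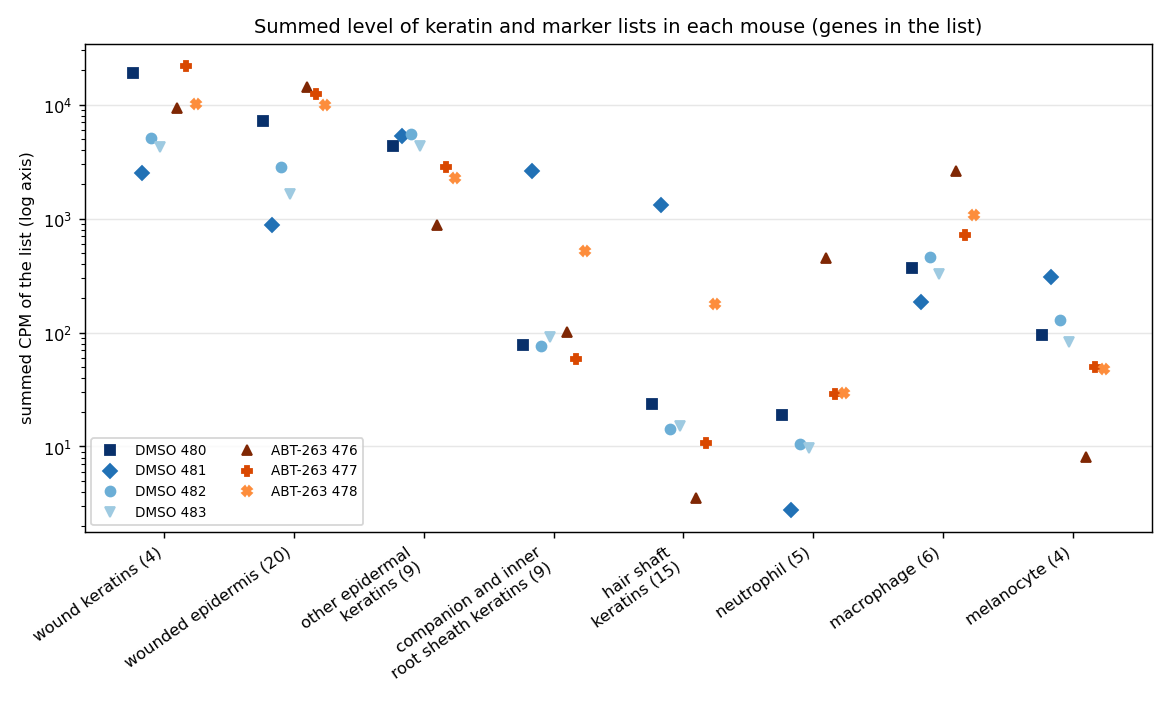
Points give the summed CPM of each gene list in each mouse on a log axis, with the number of genes in the list in brackets. Mouse 480 (7143 CPM) is nearest to the ABT-263-treated mice for the wounded epidermis genes, and mice 481 (1305 CPM) and 478 (179 CPM) stand apart for the hair shaft keratins.

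Of 10 basal keratinocyte genes, which act with the keratins in the basal layer, edgeR called 3 higher and 1 lower and did not call 6. Of all genes tested, 12.4% were called higher and 11.7% lower. The median log2 fold change of the 10 was 0.13. Lama3, which encodes a chain of the basement membrane protein laminin-332, was at 5.34 to 8.64 CPM after DMSO and at 27.3 to 61.4 CPM after ABT-263 (2.61, SE 0.32, adjusted p = 0.00619 from edgeR). Itga6, the integrin α6 of hemidesmosomes, rose by 0.60 on the log2 scale (adjusted p = 0.0316 from edgeR), a call lost without mouse 477, 478, 481, 482 or 483. Fermt1, which encodes the integrin adaptor kindlin-1, fell from 48.1 to 56.7 CPM after DMSO to 21.2 to 33.2 CPM after ABT-263 (−0.96, SE 0.17, adjusted p = 0.00954 from edgeR). Trp63, a master regulator of basal keratinocytes, did not pass the test (−0.13, SE 0.15, adjusted p = 0.567 from edgeR).

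Of 14 suprabasal and cornification genes, 1 was called higher and 0 lower by edgeR, against 12.4% higher and 11.7% lower of all genes tested. The number lower was 1 at an unadjusted p under 0.05 and by DESeq2, and 0 by limma. The median log2 fold change was −0.18. The called gene was Dsc1, a desmosomal cadherin, with a log2 fold change of 2.18 (SE 0.56, adjusted p = 0.0297 from edgeR), a call kept only without mouse 480. Lor, which encodes the cornified envelope protein loricrin, was at 16503, 4605, 7669 and 5549 CPM after DMSO and at 1279, 7974 and 2953 CPM after ABT-263. Mouse 480 was highest, as for Krt1 and Krt10, and the groups overlapped. Of 12 genes that anchor or bind keratin filaments, 0 were called higher and 1 lower by edgeR, against the same shares of all genes tested. The numbers were 0 higher and 2 lower both at an unadjusted p under 0.05 and by DESeq2, and 0 and 1 by limma. The median log2 fold change was −0.02. The lower gene was Eppk1, which encodes the keratin-binding protein epiplakin, with a log2 fold change of −1.08 (SE 0.26, adjusted p = 0.0225 from edgeR), a call lost without mouse 478, 482 or 483. The desmoplakin gene Dsp was at 645 to 1167 CPM after DMSO and 619 to 1508 CPM after ABT-263 and did not pass the test.

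Among 19 transcription factors of keratinocytes, edgeR called 3 higher and 2 lower and did not call 14. Of all genes tested, 12.4% were called higher and 11.7% lower. The median log2 fold change of the 19 was 0.18. Gata3, known in hair follicle and epidermal differentiation, was at 317 to 491 CPM after DMSO and at 61.5 to 137 CPM after ABT-263 (−2.03, SE 0.29, adjusted p = 0.00676 from edgeR). Klf5, a factor of proliferating basal cells, fell by 1.25 on the log2 scale (SE 0.21, adjusted p = 0.00877 from edgeR). Grhl3, which acts in barrier formation and wound repair, was at no more than 17.4 CPM after DMSO and at 45.2 to 53.5 CPM after ABT-263 (2.19, SE 0.39, adjusted p = 0.0109 from edgeR). Nfe2l2, which encodes the stress factor NRF2, had a log2 fold change of 1.16 (SE 0.21, adjusted p = 0.0103 from edgeR), and Jun, the remaining called gene, one of 0.67. In these 5 genes the groups did not overlap, and each held its call whichever mouse was left out.

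Of 9 other keratins of the epidermis, 7 were tested, with a median log2 fold change of −0.79, negative in 6 of the 7. By edgeR 1 was called lower and 0 higher, against 11.7% lower and 12.4% higher of all genes tested. The numbers were 4 lower and 0 higher at an unadjusted p under 0.05, and 2 and 0 each by DESeq2 and limma. Krt77, a type II keratin related to Krt1, was at 1184, 3673, 3476 and 2622 CPM after DMSO and at 62.5, 437 and 552 CPM after ABT-263. Every ABT-263-treated mouse was below every DMSO-treated mouse. The log2 fold change was −2.97 (SE 0.76, adjusted p = 0.0298 from edgeR), a call lost without mouse 477, 478, 481, 482 or 483. Krt24 was at 17.0 to 28.3 CPM after DMSO and 3.25 to 14.0 CPM after ABT-263 (−1.34, adjusted p = 0.0641 from edgeR). The keratins of simple epithelia were low. Of these 6, Krt7 was at 4.72 to 6.18 CPM after DMSO and 1.11 to 2.06 CPM after ABT-263 (−1.71, SE 0.28, adjusted p = 0.00826 from edgeR). Krt18 was called lower with overlapping groups (−4.35, adjusted p = 0.0275 from edgeR), and Krt20, at under 2 CPM in every mouse, was called higher (1.70, adjusted p = 0.0290 from edgeR). Krt7 held its call whichever mouse was left out. Krt18 lost its call without any of the 3 ABT-263-treated mice and with limma (adjusted p = 0.0544), and Krt20 without mouse 477, 478, 481 or 482.

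Keratins of the hair follicle set 2 libraries apart, 1 in each group. The 9 keratins of the companion layer and inner root sheath summed to 2629 CPM in DMSO-treated mouse 481 and 518 CPM in ABT-263-treated mouse 478, against 59.1 to 102 CPM in the other 5 mice. The 15 hair shaft keratins analysed summed to 1305 CPM in mouse 481 and 179 CPM in mouse 478, against 3.54 to 23.8 CPM in the others. Of the 6 and 9 genes of these lists that were tested, edgeR called 0 in either direction, with medians of −2.01 and −2.47 (0 also at an unadjusted p under 0.05, by DESeq2 and by limma). The 4 melanocyte genes, which mark the pigment cells of hair follicles, summed to 307 CPM in mouse 481, 82.1 to 130 CPM in the other DMSO-treated mice and 8.01 to 49.6 CPM after ABT-263, and 1 of the 4 (Dct) was called lower, a call lost without any one of the 7 mice. An alternative added after seeing the data left out both mouse 481 and mouse 478. The log2 fold change of Krt15 was then −1.23 (SE 0.46, adjusted p = 0.153 from edgeR) and that of Krt2 −2.41 (SE 1.16, adjusted p = 0.232 from edgeR). No gene of the keratin or keratinocyte lists was called in that fit. Krt7, Lama3 and Gata3, which kept their calls without any single mouse, were also not called. Its adjusted p therefore cannot show whether the Krt15 difference depended on those mice. The part of hair follicle content in the levels of Krt15, Krt2 and the wound keratins, which the follicle also makes, was not tested.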

How the data were processed

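Skin RNA of 7 mice was analysed, and groups and mouse numbers were taken from the labels. The authors aligned read pairs to mouse build mm10 with STAR 2.7.9a, used featureCounts (Subread 1.6.2) to count proper pairs with a single alignment, by strand, for each Ensembl gene, excluded mitochondrial genes and deposited raw counts. They also deposited log2-scale values that DESeq2 1.23.10 had variance-stabilized, used here only in alternatives. Symbols, positions and transcripts came from GENCODE M21 on GRCm38 (mm10), a different annotation release, which held 55190 of the 55450 identifiers. Krt85 is not analysed here, and 1 called gene of the basal keratinocyte list is not reported here.

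Counts were tested in R 4.3.3 with edgeR 4.0.16 (TMM, filterByExpr, robust quasi-likelihood fit, two-sided), with Benjamini-Hochberg adjustment over 17959 genes, and the procedure was tested on simulated data. Depth was 20344364 to 43562330 counts per library. The labels treat mice as separate samples and name no batch. Ratios were log2 values of counts with 0.5 added, and the SE of a ratio difference came from the separate variances of the log2 ratios in each group. Levels between genes were divided by the length of the transcript with the longest coding part. The exact test used the absolute difference of group means. Limits from counts cover counting error only.

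Text names all members, up to 4 called genes of smallest p per list, genes whose call changed without a mouse, and the 5 genes most like each of Krt14, Krt10, Krt16 and Krt6a. Trp63, Dsp, Lor, S100a9, Lcn2, Ereg, Krt24, Dct and follicle genes without a call were named after their values were seen. The members and lists were chosen with earlier results of these data known. Alternatives were DESeq2 1.42.0 (Wald test, size factors), scaling without keratin genes, other filters on low counts, protein-coding genes only, removal of length and GC trends (mgcv 1.9.3), thinned counts, limma 3.58.1 on the variance-stabilized values, other pseudocounts and leaving out mice.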

Additional observations from a re-analysis of the deposited data

Results flagged for a closer look

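In 7 of 44 measures examined, 1 of the 4 DMSO-treated mice stood far from the rest of its group, judged by its gap to the nearest mouse divided by the range of the group. For normally distributed values, chance gives about 1 in 20 such groups, or 2.2 of 44, and the measures share genes. The flagged measures are CPM on a linear scale, for which that rate may be too low. The gap was 0.865 of the range for Krt6b and 0.844 for Krt16, in both cases with mouse 480 highest (3446 and 9686 CPM). The summed wound keratins gave 0.843 and the summed basal keratins 0.903, again with mouse 480 highest, at 18950 and 30558 CPM. Mouse 481 was highest for the summed keratins of the companion layer and inner root sheath (0.994) and for the hair shaft keratins (0.993). Mouse 483 was highest for the summed adipocyte genes (0.833), at 1499 CPM against 574 to 729 CPM in the other 3. No other library of the 4 stood apart in the remaining 37 measures.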

How the results depend on the processing

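The number of members called higher (0 with all mice) was 0 to 3 with each mouse left out, 3 without DMSO-treated mouse 480, and 1 without mice 480 and 477. The number called lower (1) was 2 with DESeq2's Wald test, 0 to 1 with each mouse left out and 0 without mice 481 and 478. Of the other keratins, 1 was called higher with all mice, 0 where 10 counts were required in every sample, 0 to 1 with each mouse left out and 0 without either pair of mice. For those called lower (3), the numbers were 6 with the Wald test, 1 with every counted gene tested, 1 to 4 with each mouse left out, 0 without mice 481 and 478 and 1 without mice 480 and 477. Of the keratinocyte lists, 13 genes were called higher, 19 with the Wald test and 8 with every counted gene tested. The number was 6 to 27 with each mouse left out (27 without mouse 480). It was 0 without mice 481 and 478 and 20 without mice 480 and 477. Those called lower (4) were 6 with the Wald test and 3 to 5 with each mouse left out. They were 0 without mice 481 and 478 and 6 without mice 480 and 477. The fit of 5 mice without 481 and 478 called no gene of any of these lists. Lama3, Serpinb2, Gata3 and Krt7, which kept their calls with each single mouse left out, were also not called. The lack of calls in that fit therefore cannot show whether a change depended on those mice. The sign of some log2 fold changes turned. With each mouse left out, Krt5 ran from −0.73 to 0.044 (positive without mouse 476), Krt14 from −0.32 to 0.64 (negative without 477), Krt1 from −0.17 to 1.04 (negative without 477 and, at −0.011, without 483) and Krt10 from −0.31 to 0.34 (positive without 480 and, at 0.31, without 476). Krt1 was at −0.00076 without 481 and 478, and Krt10 at 0.098 without 480 and 477. The log2 difference of Krt6a over Krt6b ran from −0.17 to 0.083 with each mouse left out and was 0.15 without 481 and 478. Apart from leaving out mice, the cause of these changes was not tested. The alternatives that leave out pairs of mice were chosen after seeing the data. Krt2 was not tested where 10 counts were required, and its ratio could not be computed without a pseudocount. No paired analysis was possible because the groups share no replicate numbers. At these depths Krt2 rested on few counts.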
